A study of Mus musculus with 12 samples.

Results

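The genes *Ccr1*, *Ccr2*, *Cxcr4*, *Ccrl2* and *Cmklr1* were followed across all libraries of a bulk mRNA-seq experiment on mouse bone marrow-derived macrophages (BMDMs). They were taken by gene symbol, each matched 1 row, and they make up 5 of the 18376 genes in the table. All 5 encode receptors, or receptor-like proteins, for chemokines or chemerin. They were chosen with earlier results of these data known, and the study itself had picked *Ccr2* and *Cxcr4* out of these libraries. The shared direction of the 5 is therefore not independent evidence. With 50 ng/ml activin A for 6 days every one of the 5 mRNAs was higher than in untreated cells, by 1.40-fold to 2.06-fold, and with activin A plus follistatin none differed detectably from untreated cells.

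The experiment asked what activin A, a ligand of the TGF-β family, does to BMDMs, and whether its binding protein follistatin blocks it. BMDMs are macrophages grown in culture from marrow progenitors of adult wild-type (WT) C57BL6/J mice with the growth factor M-CSF, here at 50 ng/ml in all 4 groups. The groups were untreated cells (CTRL), cells given 50 ng/ml activin A (Act), cells given 250 ng/ml of the follistatin isoform FST288 (FST), and cells given both (Act + FST), each with 3 libraries harvested at day 6. The cells matured in M-CSF in a dish and stand in for tissue macrophages only as far as such cells do. The sources used here do not say whether the 3 libraries of a group came from separate mice, so the p-values measure the spread between these libraries, which may be technical.

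Chemokine receptors are 7-transmembrane receptors that couple to inhibitory G proteins and steer leukocytes along gradients of small secreted proteins. CCR1 binds CCL3, CCL5 and related inflammatory chemokines, and CCR2 is the receptor for CCL2 and CCL7 that brings Ly6C-high monocytes out of the marrow and into inflamed tissue. CXCR4 binds CXCL12 and holds haematopoietic and myeloid cells in the marrow. CMKLR1 is the signalling receptor for chemerin, while CCRL2 belongs to the atypical receptors, binds chemerin without signalling in the usual way, and presents it to cells that carry CMKLR1. In the mouse, several CC receptor genes, *Ccr1* and *Ccr2* among them, sit side by side in a cluster.

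In the mouse genome (GRCm38, the build also called mm10), *Ccr1* (ENSMUSG00000025804) lies at chr9:123962124-123968692 on the minus strand and *Ccr2* (ENSMUSG00000049103) at chr9:124101950-124113557 on the plus strand, with a gap of 133.258 kb between them. *Ccrl2* (ENSMUSG00000043953) is on the same chromosome at chr9:111054486-111057519, minus strand, 12.9 Mb from *Ccr1*. *Cxcr4* (ENSMUSG00000045382) is at chr1:128588199-128592293, minus strand. *Cmklr1* (ENSMUSG00000042190) is at chr5:113612354-113650426, minus strand, where the antisense gene *Gm15736* overlaps the locus but shares 0 exonic bases with it. The other 4 loci overlap no annotated gene. Reads that fell in more than 1 gene or more than 1 genomic position had been left out by the authors. Of the 75-base stretches of the *Ccr1* transcripts, none were found in *Ccr1l1*, *Ccr3* or *Ccr2*, and none of those of *Ccr2* were found in *Ccr1* or *Ccr3*.

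The 250 bases before the RefSeq start sites (GRCm38.p6) are shown for the members with a window free of annotated exons. They were searched because all 5 mRNAs were higher in Act and activin A acts through SMAD proteins, which bind short CAGAC boxes. On both strands, 5 motifs were searched: CAGAC (SMAD box), GTCTAGAC (SMAD palindrome, with no match in any member), TGAGTCA (AP-1), GAGGAAGT (PU.1) and TATAAA (core promoter element). Capitals mark the matches. The minus-strand windows are chr1:128592300-128592549 for *Cxcr4*, chr5:113643604-113643853 for *Cmklr1* (inside the annotated locus but in no exon) and chr9:123968693-123968942 for *Ccr1*, each printed 5′ to 3′ as transcribed.
Cxcr4: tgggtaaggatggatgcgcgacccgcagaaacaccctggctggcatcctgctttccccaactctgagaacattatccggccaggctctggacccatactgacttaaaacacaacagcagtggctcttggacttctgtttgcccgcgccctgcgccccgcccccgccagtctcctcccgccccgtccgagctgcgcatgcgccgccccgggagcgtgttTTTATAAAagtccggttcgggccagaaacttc
Cmklr1: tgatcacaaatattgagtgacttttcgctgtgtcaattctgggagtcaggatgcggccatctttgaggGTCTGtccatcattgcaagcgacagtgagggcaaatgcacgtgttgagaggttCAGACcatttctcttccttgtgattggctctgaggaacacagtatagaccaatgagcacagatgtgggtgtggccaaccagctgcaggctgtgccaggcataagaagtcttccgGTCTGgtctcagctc
Ccr1: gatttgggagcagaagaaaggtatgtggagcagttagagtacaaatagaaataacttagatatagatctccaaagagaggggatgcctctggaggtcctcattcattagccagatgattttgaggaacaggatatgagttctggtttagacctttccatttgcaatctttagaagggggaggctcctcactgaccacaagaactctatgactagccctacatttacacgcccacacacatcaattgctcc
The *Cmklr1* window held 3 CAGAC boxes, and 42.2% of the 32851 promoter windows in the table held at least 1, so a match alone is common. The *Cxcr4* window held no CAGAC box, but TATAAA occurred there once on each strand in overlapping letters, starting 32 and 30 bases before the start site, which 12.4% of all windows matched. It was also the richest of the 3 in G and C, at 61.2% against 50.4% in *Cmklr1* and 43.6% in *Ccr1*. The *Ccr1* window held none of the 5 motifs. Neither did the *Ccr2* window, which overlaps annotated exons over 233 of its 250 bases and is not printed. *Ccrl2* has 3 RefSeq start sites, and the windows of 2 of them overlap and held the same CAGAC box. Annotated exons cover 139 and 140 of the 250 bases of these windows, which are not printed. The third *Ccrl2* window (chr9:111057519-111057768), with 1 exonic base, held none of the 5 motifs and is not printed either. AP-1 and PU.1 letters occurred in 4.46% and 2.44% of all windows and in none of the members, as did the palindrome in 0.167%. These are matches of letters, and no binding was measured.

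The values are normalized counts, that is, reads per gene after scaling between libraries by the authors. The libraries summed to between 5643708 and 5955400 normalized counts. Of the 18376 genes, 14318 had a mean of at least 5 and were tested, all 5 members among them. Macrophage identity was checked on 8 markers, whose summed level was 11403 to 12394 in CTRL and 11653 to 12245 in Act libraries, with *Cd14* the single marker that rose (log2 fold change 0.23, adjusted p = 0.026, limma). None of the markers of monocytes, neutrophils, dendritic cells, lymphocytes, mast cells or stromal cells that the table holds was at 0 throughout. The 6 monocyte markers summed to 1203 to 1688 in CTRL, 1983 to 2290 in Act, 1246 to 1941 in Act + FST and 1078 to 1667 in FST, so the Act libraries stood above all others, although *Hp* was the single one of the 6 to pass in Act against CTRL (log2 fold change 1.98, limma, adjusted p = 5.7e-04). Blocking on the replicate number added *F13a1* among those higher. Of the other lists, 2 of 10 neutrophil markers (*Elane* and *Mpo*), 1 of 6 dendritic cell markers (*Cd209a*) and the single tested marker of mast cells, basophils and eosinophils (*Prg2*) fell, and none of 2 lymphocyte and 3 stromal markers tested passed. With the replicate block further markers passed upward, namely 2 of the 3 stromal (*Col1a2*, log2 fold change 2.76, limma, adjusted p = 4.7e-04, and *Postn*, 2.07, adjusted p = 0.0023), 3 dendritic cell markers (*Dpp4*, *Flt3* and *Siglech*) and the neutrophil marker *Mmp8*. The 6 stromal markers in the table summed to 4 to 59 in CTRL, 16 to 236 in Act and 10 to 116 in FST, and the 6 dendritic cell markers to 105 to 228, 170 to 255 and 115 to 185, so in both lists the Act range overlapped with the others. In bulk RNA, fewer or more cells of a type and less or more RNA per cell cannot be told apart, and the part of monocyte-like, dendritic or stromal cells in the results below was not tested.

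*Ccr2*, the CCL2 receptor, had the largest estimated change of the 5 and the widest error. Its normalized counts in CTRL were 633, 508 and 272 in replicates 1, 2 and 3 (mean 471 ± 183, SD, n = 3). In Act they were 932, 873 and 940 (915 ± 36.6). In Act + FST they were 765, 537 and 391 (564 ± 188), and in FST 678, 443 and 294 (472 ± 194). The 3 Act libraries were above the other 9 and close to each other, while the remaining groups spread widely and overlapped. Against CTRL the log2 fold change was 1.04 ± 0.33 (SE), a 2.06-fold difference with a 95% interval of 1.25 to 3.38 (limma, adjusted p = 0.043). With the replicate number as a block the adjusted p was 3.3e-04. The unblocked call is a narrow one: leaving out CTRL replicate 3 brought the estimate to 0.69 (limma, adjusted p = 0.172), and the call was also lost without CTRL replicate 2, without any 1 of the 3 Act libraries, without Act + FST replicate 2 or without FST replicate 2, at adjusted p of 0.054 to 0.105 in those 6 fits.

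*Ccr1*, the receptor for CCL3 and CCL5, rose less and more evenly. CTRL libraries held 579, 522 and 477 normalized counts (526 ± 51.1), and Act libraries 758, 762 and 691 (737 ± 39.9). The Act + FST values of 570, 556 and 504 (543 ± 34.8) and the FST values of 569, 510 and 482 (520 ± 44.4) fell within the CTRL range. No Act library overlapped with any other. The log2 fold change of Act against CTRL was 0.49 ± 0.08 (SE), or 1.40-fold, with a 95% interval of 1.24 to 1.58 (limma, adjusted p = 9.2e-04).

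In the fit without the replicate block, *Cxcr4*, the CXCL12 receptor, had the smallest standard error of the 5. With the block its SE was above that of *Ccr1* (0.044 against 0.040), and in FST alone the *Ccrl2* libraries spread less. Untreated libraries gave 690, 663 and 667 (673 ± 14.6), and Act libraries 1004, 948 and 942 (965 ± 34.2). They were 632, 672 and 619 in Act + FST (641 ± 27.6) and 652, 694 and 602 in FST (649 ± 46.1). The lowest Act library was thus above the highest of the others. The log2 fold change of 0.52 ± 0.05 (SE) amounted to 1.43-fold, with a 95% interval of 1.32 to 1.55 (limma, adjusted p = 3.0e-05). Reads of a short, highly expressed transcript can share start positions, which lowers a count only if duplicate reads were removed. Whether they were is not given in the sources used here. A correction that assumes such removal was made on the scaled counts, chosen after the data had been seen. With it the log2 fold change of *Cxcr4* was 0.71.

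The chemerin pair rose as well. *Ccrl2*, the atypical receptor, had the lowest counts of the 5, at 232, 214 and 202 in CTRL (216 ± 15.1) and 368, 388 and 346 in Act (367 ± 21.0). Act + FST libraries held 215, 199 and 145 (186 ± 36.7) and FST libraries 202, 190 and 191 (194 ± 6.66), at or below the CTRL level. No Act library overlapped with another group. The log2 fold change of Act against CTRL was 0.76 ± 0.12 (SE), or 1.70-fold (95% interval 1.42 to 2.03, limma, adjusted p = 6.2e-04). *Cmklr1*, the signalling receptor, was at 638, 608 and 469 without treatment (572 ± 90.2) and at 981, 933 and 866 with activin A (927 ± 57.8). Its values were 682, 731 and 519 in Act + FST (644 ± 111) and 634, 656 and 453 in FST (581 ± 111). For both genes the Act libraries stood above the other 9. The log2 fold change of *Cmklr1* was 0.71 ± 0.16 (SE), or 1.63-fold (95% interval 1.29 to 2.07, limma, adjusted p = 0.0069).

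**Figure D1:**
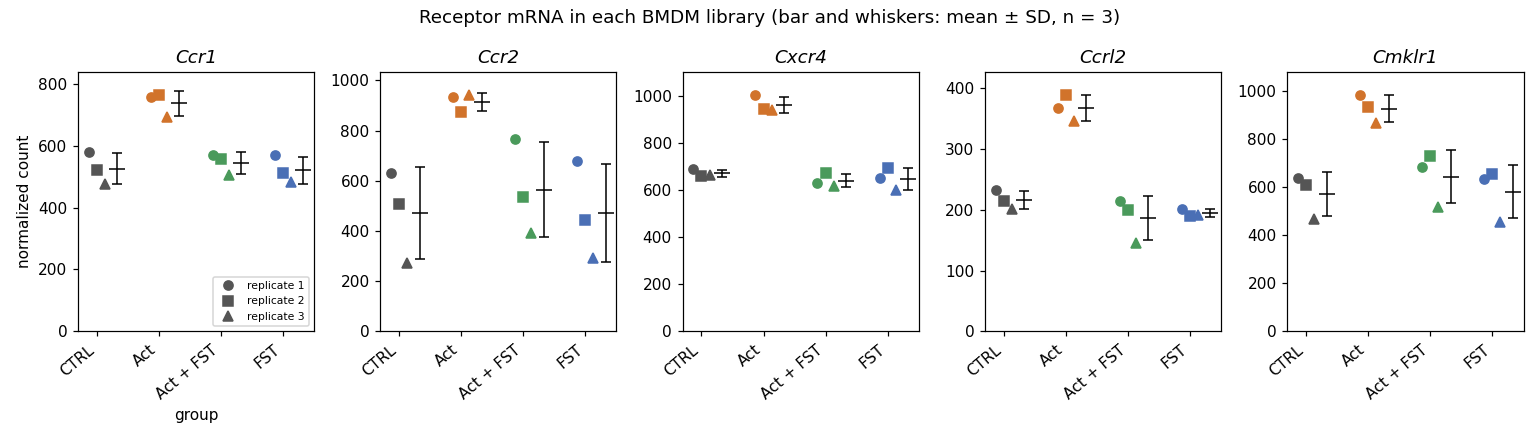
Normalized counts of the 5 receptor genes (vertical axes, each from 0) in the 12 libraries by group, with 1 symbol shape per replicate number and the mean ± SD (n = 3) beside each group. In each panel the 3 Act libraries lie above the other 9, and *Ccr2* outside Act is highest in replicate 1 (633 to 765) and lowest in replicate 3 (272 to 391).

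All 5 members passed the test upward in Act against CTRL, where 10.3% of the 14318 genes did so and 9.97% were lower. The median log2 fold change of the members was 0.71, beside 0.0036 over all genes tested. *Ccr2* alone passed with a difference of at least 2-fold, and 2.58% of all genes did so upward. With the replicate block all 5 passed, and 16.3% of all genes did so upward. Every Act library lay above the other 9 in all 5 members and in 12.6% of the genes tested. The changes were moderate among those seen: 410 genes had a larger log2 fold change than *Ccr2*, 650 than *Ccrl2*, 713 than *Cmklr1*, 1080 than *Cxcr4* and 1149 than *Ccr1*. Within replicate numbers, Act exceeded CTRL in 3 of 3 pairs for each member, which follows from every Act library lying above the other 9. The log2 differences in replicates 1, 2 and 3 were 0.54, 0.52 and 0.50 for *Cxcr4*, nearly equal, but 0.56, 0.78 and 1.79 for *Ccr2*, where the low CTRL value of replicate 3 set the largest step.

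Whether follistatin blocked the rise was asked by setting Act against Act + FST, a comparison that shares the Act libraries with the one above. In this comparison 4 of the 5 members were higher in Act, where 11.1% of all genes were. The log2 differences were 0.44 for *Ccr1* (limma, adjusted p = 0.0018), 0.59 for *Cxcr4* (adjusted p = 1.2e-05), 0.99 for *Ccrl2* (adjusted p = 9.1e-05) and 0.54 for *Cmklr1* (adjusted p = 0.028). For *Ccr2* the difference of 0.75 ± 0.33 (SE) did not pass (adjusted p = 0.135), though every Act library was above every Act + FST library, and with the replicate block it did (adjusted p = 0.0037), as did 17.1% of all genes upward. The *Cmklr1* call was lost without Act replicate 1, Act replicate 2 or Act + FST replicate 3, at adjusted p of 0.087, 0.075 and 0.115.

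Cells given both agents were close to cells given neither. None of the 5 members passed between Act + FST and CTRL (limma, adjusted p = 1 for each), nor did any other gene (0.0% of 14318, with 655 genes at an unadjusted p under 0.05, none of them a member). With the replicate block 80 genes passed (0.559%), none of them a member. The log2 differences, with 95% intervals, were 0.05 (-0.12 to 0.22) for *Ccr1*, 0.29 (-0.43 to 1.01) for *Ccr2*, -0.07 (-0.19 to 0.04) for *Cxcr4*, -0.23 (-0.49 to 0.03) for *Ccrl2* and 0.17 (-0.17 to 0.51) for *Cmklr1*. The intervals are narrow for *Cxcr4* and *Ccr1* and leave room for a 2-fold difference in *Ccr2*. Set against the activin A effect in CTRL terms, these differences came to 10.1% for *Ccr1*, 28.0% for *Ccr2* and 23.9% for *Cmklr1*, and to -13.8% for *Cxcr4* and -30.1% for *Ccrl2*, which lay below CTRL. By replicate number, Act + FST was above CTRL in 3 of 3 pairs for *Ccr2* and *Cmklr1* and in 0 of 3 for *Ccrl2*. The blocked 95% intervals lay on 1 side of 0 for *Cmklr1* (0.03 to 0.31) and *Ccrl2* (-0.41 to -0.05), at an adjusted p of 0.35 for both (limma).

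FST288 alone left the 5 mRNAs near their untreated level. The log2 differences of FST from CTRL were -0.01 for *Ccr1*, 0.00 for *Ccr2*, -0.05 for *Cxcr4*, -0.15 for *Ccrl2* and 0.02 for *Cmklr1* (limma, adjusted p = 1 for each). No gene passed in this comparison (0.0%, 299 at an unadjusted p under 0.05), nor did any with the replicate block (0.0%). In each of the 3 replicate pairs *Ccrl2* was the lower with FST288, a difference the test did not call. In the presence of FST288, activin A gave log2 differences (Act + FST against FST) of 0.06 for *Ccr1*, 0.29 for *Ccr2*, -0.02 for *Cxcr4*, -0.08 for *Ccrl2* and 0.15 for *Cmklr1*, again with an adjusted p of 1 for each and no call in 14318 genes (0.0%, 502 at an unadjusted p under 0.05). Act + FST was above FST in 3 of 3 replicate pairs for *Ccr1*, *Ccr2* and *Cmklr1*, in 2 for *Ccrl2* and in 1 for *Cxcr4*. With the replicate block 31 genes passed (0.217%) and no member did, although the 95% interval of *Cmklr1* lay above 0 (0.02 to 0.29, limma, adjusted p = 0.548). The plot of differences with their intervals shows the pattern.

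**Figure D2:**
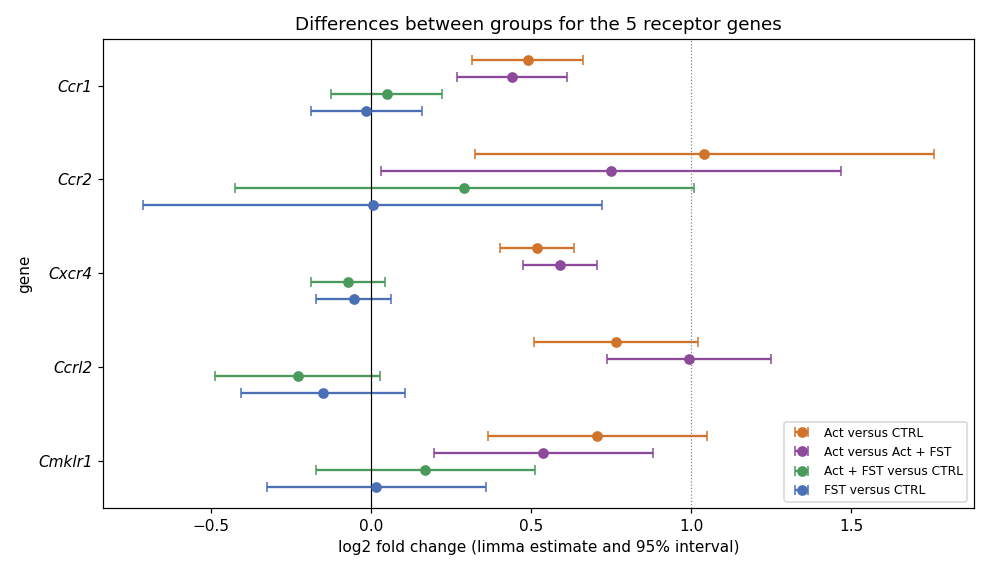
Log2 fold changes (horizontal axis, limma estimate with 95% interval, 3 libraries a group) of the 5 receptor genes (vertical axis) in 4 comparisons that share libraries, with a dotted line at a 2-fold difference. In this fit, made without the replicate block, the intervals of Act against CTRL lie above 0 for all 5, and those of Act + FST and FST against CTRL span 0.

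The difference between the activin A effect without and with FST288 was tested as an interaction over all 4 groups. It was 0.84 ± 0.17 on the log2 scale for *Ccrl2* (SE, limma, adjusted p = 0.0097), 0.53 ± 0.08 for *Cxcr4* (adjusted p = 0.0014) and 0.43 ± 0.11 for *Ccr1* (adjusted p = 0.042). These 3 of the 5 members passed, as did 3.99% of all genes in this direction. *Cmklr1* (0.55, adjusted p = 0.18) and *Ccr2* (0.75, adjusted p = 0.42) did not pass, but did with the replicate block, at adjusted p of 7.5e-04 and 0.047, where 9.36% of all genes passed upward. The *Ccr1* call was lost in 8 of the 12 fits that left out 1 library (CTRL replicates 2 and 3, Act replicates 1 and 2, Act + FST replicates 2 and 3, FST replicates 1 and 2), at adjusted p of 0.058 to 0.098.

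The members differed from each other in how steady they were. The coefficient of variation (SD over mean) of *Ccr2* was 38.9% in CTRL, 33.4% in Act + FST and 41.0% in FST, but 4.00% in Act. Among 10634 genes with a mean of at least 50, 0.705% varied more than *Ccr2* in CTRL and 0.376% did in FST, whereas 61.2% did in Act. *Cmklr1* varied by 15.8%, 17.2% and 19.2% in CTRL, Act + FST and FST and by 6.23% in Act. *Cxcr4* stayed between 2.16% and 7.09% in all groups, beside 4.92% to 6.06% for the median gene. Whether the spread itself differed between groups was not tested. Replicate 3 was the lowest library of its group in all 4 groups for *Ccr1* and *Cmklr1*, as in 3.47% of the genes tested. For *Ccr2* it was the lowest in the 3 groups other than Act, as in 6.48%, whatever the order in Act. The sum of the 6 monocyte markers was likewise lowest in replicate 3 of each group, at 1203, 1983, 1246 and 1078 in CTRL, Act, Act + FST and FST. Its part in the receptor values was not tested.

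Per kilobase of exonic sequence, the scale on which genes can be set side by side, *Cxcr4* was the most abundant of the 5 in each group, at 372 normalized counts per kb in CTRL and 534 in Act. In CTRL it was followed by *Ccr1* (186 per kb) and *Cmklr1* (168 per kb), whose library ranges of 168 to 204 and 138 to 187 overlapped. Then came *Ccrl2* (83.1 per kb) and *Ccr2* (69.7 per kb), whose ranges also overlapped. In Act the order was *Cxcr4*, *Cmklr1* (272 per kb), *Ccr1* (260 per kb), *Ccrl2* (141 per kb) and *Ccr2* (135 per kb), with the same neighbours overlapping. *Ccr2*, with 6760 exonic bases against 1808 in *Cxcr4*, thus came near *Cxcr4* in Act by counts but not by length-scaled level.

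Genes with the most similar profile were found as those with the smallest root mean square difference in log2 level, each gene centred on its mean over the 12 libraries, among 10633 other genes with a mean of at least 50. The complement gene *C3*, with a root mean square difference of 0.229, was among the 3 nearest to *Ccr2*. Among the 3 nearest to *Cxcr4* were *Tnfrsf21* (0.040) and *Mylip* (0.051), and the nearest to *Ccr1* were *Chsy1* (0.058), *Clec4n* (0.063) and *Dclre1b* (0.064). For *Ccrl2* the nearest were *Dtx4* (0.079), the AP-1 family gene *Fosl2* (0.109) and *Itprip* (0.115), and for *Cmklr1* they included *AI427809* (0.111) and *Cxcl16* (0.114), a chemokine gene. These profiles share libraries and the Act step, and the distances are descriptions.

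Along the receptor cluster of chromosome 9 the genes did not move as a block. From *Ccr9* to *Ccr2* the tested genes were *Ccr9*, the non-receptor genes *Lztfl1* and *Fyco1*, *Ccr1*, *Ccr1l1*, *Ccr3* and *Ccr2*, and *Cxcr6* and *Xcr1* were below the mean of 5. *Ccr3*, the eotaxin receptor gene between *Ccr1* and *Ccr2*, fell from 274, 154 and 123 normalized counts in CTRL to 87, 67 and 57 in Act. On the log2 scale this was a change of -1.31 ± 0.39 (SE, limma, adjusted p = 0.031), opposite in sign to that of *Ccr1* and *Ccr2*. Its unblocked call was lost without CTRL replicate 1 or 2 or Act replicate 2 or 3, at adjusted p of 0.059 to 0.108. With the replicate block and all libraries the adjusted p of *Ccr3* was 2.4e-06 (limma). *Ccr1l1*, beside *Ccr1*, was at -0.60 (adjusted p = 0.167, with the replicate block 0.038) and *Ccr9* at 1.08 (adjusted p = 0.14, with the block 0.017). The 2 non-receptor genes were at 0.10 and 0.13 (adjusted p = 0.173 and 0.378, with the block 0.104 and 0.045).

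**Figure D3:**
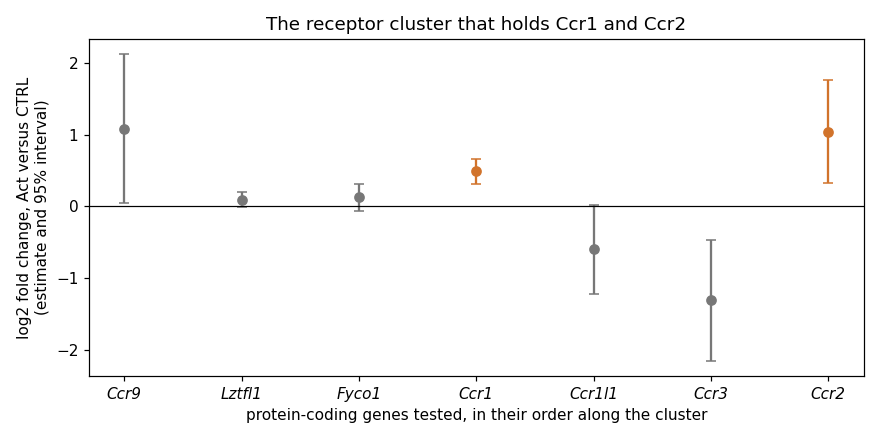
Log2 fold change of Act against CTRL (vertical axis, limma estimate with 95% interval) for the tested genes of the chromosome 9 receptor cluster in their order along the chromosome, with *Ccr1* and *Ccr2* in orange. *Ccr3* (-1.31), between *Ccr1* (0.49) and *Ccr2* (1.04), lies on the other side of 0.

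Among the other chemokine and chemerin receptors, 12 of 20 listed genes were in the table and 7 were tested. In Act against CTRL 1 rose and 2 fell (median log2 fold change 0.55), beside 10.3% higher and 9.97% lower among all genes. The largest change in the list was in *Cx3cr1*, the fractalkine receptor gene of resident macrophages and monocytes. Untreated libraries held 205, 502 and 80 normalized counts of it, and Act libraries 2207, 2123 and 2142 (log2 fold change 3.41 ± 0.59, limma, adjusted p = 0.0014), with 233, 112 and 96 in Act + FST. Like *Ccr2* it was high and even in Act and uneven elsewhere. *Cxcr3*, a receptor for interferon-induced chemokines, fell with *Ccr3*, from 213 ± 24.2 to 166 ± 11.1 (log2 fold change -0.35, limma, adjusted p = 0.018). That unblocked call was lost without CTRL replicate 2 or 3 or Act replicate 1 or 3 (adjusted p 0.052 to 0.082). With the replicate block and all libraries the adjusted p of *Cxcr3* was 9.9e-04 (limma). *Ccr9*, *Ccr1l1*, *Cxcr2* (0.55, adjusted p = 0.45, with the block 0.047) and *Ccr7* (0.65, adjusted p = 0.376) did not pass. The count of 3 calls was 1 to 3 when each library was left out in turn. It was 1 without CTRL replicate 2 or Act replicate 3, and it was 6, up or down, with the replicate block. With the block 16.3% of all genes passed upward, and the downward share was not computed.

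Receptors for other leukocyte attractants were mixed. Of 11 tested, 5 rose and 1 fell (median log2 fold change 0.28), beside 10.3% higher and 9.97% lower among all genes. The formyl peptide receptor genes rose most, *Fpr1* from 28, 20 and 12 to 60, 84 and 95 normalized counts (log2 fold change 1.99) and *Fpr2* from 21, 22 and 10 to 66, 69 and 97 (2.12, limma, adjusted p = 2.5e-04 and 7.0e-04). The oxysterol receptor gene *Gpr183* (0.64), the C5a-binding receptor gene *C5ar2* (0.56) and the sphingosine 1-phosphate receptor gene *S1pr1* (0.39) rose as well, and the platelet-activating factor receptor gene *Ptafr* fell (-0.20). *C5ar1* (-0.05), *C3ar1* (-0.04), *S1pr2* (0.03), *Ltb4r1* (0.28) and *Cysltr1* (0.21, adjusted p = 0.061, with the block 0.0013) did not pass.

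The ligand genes tested, which were those for CCR1, CCR2 and CXCR4, mostly ran the other way in the same cells. Of 9 tested, 5 fell, 1 rose and 3 did not pass (median log2 fold change -0.39), beside 10.3% higher and 9.97% lower among all genes. *Ccl2*, the main CCR2 ligand, was at 211, 190 and 167 in untreated libraries (normalized counts) and at 53, 55 and 30 with activin A, against 206, 171 and 188 in Act + FST and 224, 187 and 163 in FST. The Act libraries were below the other 9 (log2 fold change -2.06 ± 0.20, SE, limma, adjusted p = 1.8e-05). *Ccl7*, which also binds CCR2, fell from 127, 103 and 92 to 26, 25 and 20 (-2.13 ± 0.16). *Cxcl12*, the CXCR4 ligand, was low throughout and fell from 22, 36 and 37 to 13, 14 and 16 (-1.06 ± 0.28, limma, adjusted p = 0.017). That call was lost without CTRL replicate 2 or 3 or Act replicate 1 (adjusted p 0.056 to 0.073), and the blocked adjusted p with all libraries was 0.0053. The CCR1 ligand genes *Ccl3* (-0.39) and *Ccl6* (-0.48) fell, while *Ccl9* (-0.05), *Ccl12* (-0.33) and *Mif* (0.13) did not pass. *Ccl5* alone rose, from 68, 72 and 26 to 148, 125 and 158 (1.49 ± 0.38, limma, adjusted p = 0.016). That call was lost without CTRL replicate 3 or Act replicate 3 (adjusted p 0.056 and 0.057), and the blocked adjusted p with all libraries was 3.9e-04. Chemerin, encoded by *Rarres2*, was not analysed here.

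**Figure D4:**
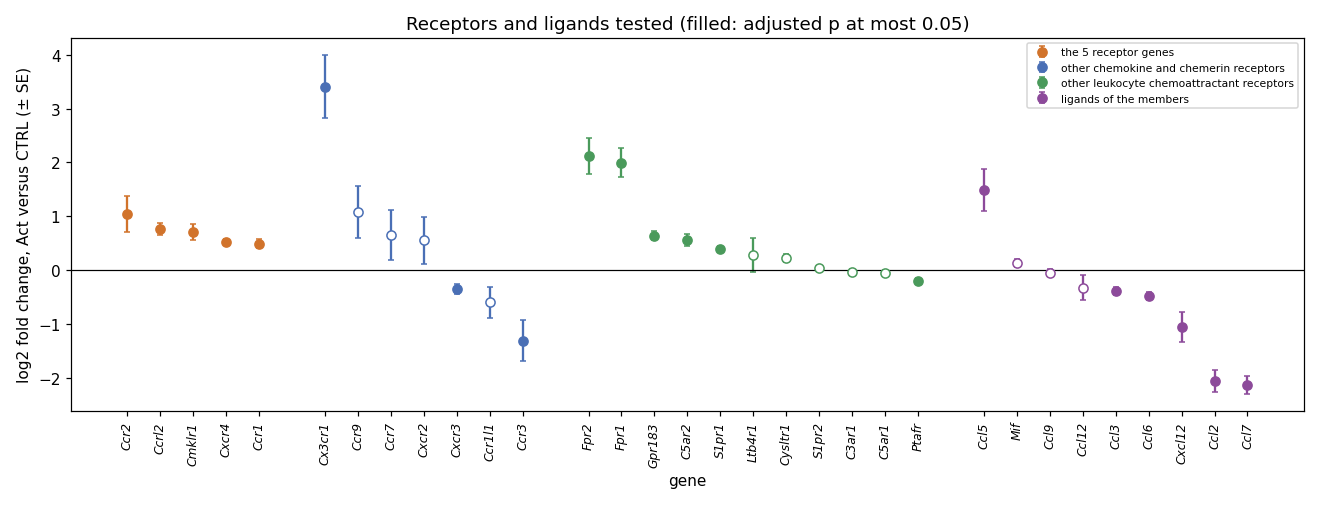
Log2 fold change of Act against CTRL (vertical axis, ± SE, limma) for the 5 receptor genes, the other receptors and the ligands tested (horizontal axis), filled where the adjusted p was at most 0.05. The 5 receptor genes lie between 0.49 and 1.04, *Cx3cr1* at 3.41, and the CCR2 ligand genes *Ccl2* and *Ccl7* at -2.06 and -2.13.

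Most genes of the signalling chain below the receptors did not pass. Of 32 signalling genes tested, 3 rose and 4 fell, none by 2-fold, with a median log2 fold change of 0.02, beside 10.3% higher and 9.97% lower among all genes. The receptor kinase gene *Grk5* (0.38), the Rac exchange factor gene *Prex1* (0.28) and the phospholipase gene *Plcb3* (0.27) rose. *Rgs18*, whose product speeds the switching off of G proteins, fell by 0.55 on the log2 scale, and *Plcb2* (-0.28), *Gng2* (-0.24) and the Rac activator gene *Dock2* (-0.17) fell too. The genes of the inhibitory G protein subunits, *Gnai2* (0.01) and *Gnai3* (0.00), and of the arrestins, *Arrb1* (-0.13) and *Arrb2* (0.12), did not pass in this fit. With the replicate block 15 of the 32 passed, up or down, the arrestin genes among them (limma, adjusted p = 0.016 and 0.028). Over all genes 16.3% passed upward with the block. The downward share was not computed, so the count of 15 has no full background beside it. Without the block, leaving out CTRL replicate 3 gave a count of 4.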

How the data were processed

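The authors cultured the BMDMs, made stranded mRNA libraries from total RNA and sequenced them as 75-base single-end reads. Per the submitters' notes and the study's methods, reads were trimmed with Trimmomatic 0.39, aligned to mm10 (Ensembl release 101) with STAR 2.7.9a and counted with featureCounts 2.0.2, leaving out reads in more than 1 gene or position, and the authors tested them with DESeq2 1.30.0. The signal values deposited by the authors are gene counts on a normalized scale in whole numbers, with library totals brought close together. The scaling formula, the strand setting of the counting and any removal of duplicate reads are not given in the sources used here. Scaled counts keep no exact depth, so no counting intervals are given.

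From these values, log2(normalized count + 1) was fitted with limma 3.58.1 in R 4.3.3 (1 mean per group over all 12 libraries, empirical Bayes with a trend) for 14318 genes whose mean was 5 or more, with Benjamini-Hochberg adjustment over all of them and calls at an adjusted p of at most 0.05. Fold changes are on that log2 scale, which understates the change of low genes. Intervals are at 95%. With 3 libraries against 3 an exact permutation test of a single gene could not go below 0.1, so none was run. The script was tested on simulated data. The members and gene lists were chosen with earlier results of these data known. The text names the 5 members, each tested gene of the lists of receptors and ligands, up to 4 signalling genes called in each direction, the 3 genes of most similar profile per member, and the members' neighbours on chromosome 9, except a few genes that are not reported here. The inhibitory G protein and arrestin genes were named after their values were seen.

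Deviations of same-numbered libraries from their group means correlated in all 18 pairs (r 0.157 to 0.481, mean 0.312), so the replicate numbers, which are in the labels, were taken to pair the libraries. The fit with the replicate number as a block is given where it changes a call, and for some calls lost when 1 library was left out. Without the block, differences between replicate numbers count as error, so a missing call does not show that groups are equal. Alternatives were pseudocounts of 0.5 and 5, no filter or a mean of at least 50, recomputed median-of-ratios factors, quantile normalization, only the libraries compared, no variance trend, and each library left out. Exonic lengths and loci are from GENCODE M21, and upstream sequences from RefSeq.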

Additional observations from a re-analysis of the deposited data

Results flagged for a closer look

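For 3 of the members, the effect of activin A differed between cells without and with FST288 by the interaction test in limma. On the log2 scale the effect without FST288 exceeded that with it by 0.84 for *Ccrl2* (adjusted p = 0.0097), 0.53 for *Cxcr4* (adjusted p = 0.0014) and 0.43 for *Ccr1* (adjusted p = 0.042). The *Ccr1* call did not survive leaving out most single libraries, as given above.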

How the results depend on the processing

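*Ccr1*, *Cxcr4*, *Ccrl2* and *Cmklr1* stayed past the test in Act against CTRL in all 22 alternatives, and *Ccr2* in 14, with a lowest log2 fold change of 0.69. With no variance trend the *Ccr2* call was lost (adjusted p = 0.09, limma). With the replicate block 5 members passed the interaction test, 6 of the other chemokine receptors passed in Act against CTRL and 15 of the signalling genes. The upward shares over all genes are given above. Beside the calls given in the report it changed no other call of a named gene in Act against CTRL. In other comparisons it did, among them Act against Act + FST for *Ccr3* (adjusted p = 2.7e-04), *Ccr9* (0.012) and *Fyco1* (0.031), and the interaction for *Ccr3* (0.0038), *Ccr9* (0.022) and *Cx3cr1* (0.017). With no trend in the variance 2 of the other receptors passed. Leaving out 1 library at a time gave 1 to 3 of the other receptors and 4 to 8 signalling genes. Values near 0 changed sign in such fits. For *Ccr1* these ranged from -0.0189 to 0.121 (Act + FST against CTRL) and -0.0827 to 0.0569 (FST against CTRL), and for *Ccr2* from -0.0117 to 0.59 (Act + FST against FST), -0.0608 to 0.547 (Act + FST against CTRL) and -0.348 to 0.303 (FST against CTRL). In Act + FST against FST they ranged from -0.0704 to 0.0321 for *Cxcr4*, -0.192 to 0.0901 for *Ccrl2* and -0.0172 to 0.30 for *Cmklr1*, and in FST against CTRL from -0.119 to 0.186 for *Cmklr1*. In Act against CTRL, *C5ar1* ranged from -0.0984 to 0.00277, *C3ar1* from -0.0739 to 0.014 and *Ccl9* from -0.0938 to 0.0267, and *S1pr2* was at -0.00874 after quantile normalization. The fit with the compared libraries alone could not be made for the interaction, which needs all 4 groups. The correction for shared start positions was chosen after the data had been seen. It was made on scaled counts and assumes that duplicate reads had been removed, which is not known. It gave 0.56, 1.09, 0.71, 0.81 and 0.80 for *Ccr1*, *Ccr2*, *Cxcr4*, *Ccrl2* and *Cmklr1*. The causes were not tested.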
